A study of Mus musculus with 12 samples.

Results

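The genes described here encode the laminin chains, nidogens and heparan sulfate proteoglycans of the vascular basement membrane: Lama2, Lama4, Lama5, Lamb1, Lamb2, Lamc1, Nid1, Nid2, Hspg2 and Agrn. They were chosen by name, as the rows of the deposited count table whose Ensembl identifier belongs to one of these symbols, and all 10 were found among the 53379 genes of the table. Brain RNA, described by the submitters as injured cortex, was sequenced from wild-type (WT) C57BL/6J mice 6 months after injury. The injury was rlmTBI, a repeated closed head impact below the level of mild traumatic brain injury, and its control was sham. Diet was either a purified control diet given without a break or a high-fat diet with fish oil given in cycles. Sham and injured mice on each diet made 4 groups, called below purified sham and purified injured on the purified diet, and fish oil sham and fish oil injured on the other. Each had 3 libraries, numbered 2, 3 and 4 in the labels. The fish oil diet differed from the purified diet in fat, in fish oil and in being given in cycles, and the effects of these cannot be told apart. The sources used here do not tie libraries to single animals, so p-values here reflect only how libraries of a group differ.

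A basement membrane is a thin sheet of matrix that surrounds endothelial cells and pericytes and separates them from astrocyte endfeet. Its laminins are trimers of an alpha, a beta and a gamma chain that polymerize on cell surfaces, where integrins and dystroglycan bind the alpha chain. Nidogens link the laminin sheet to a network of type IV collagen, and the proteoglycans perlecan (Hspg2) and agrin (Agrn) add heparan sulfate that holds growth factors. In brain vessels, endothelial cells are known to make laminins with the alpha 4 and alpha 5 chains, and astrocytes, mural cells and fibroblasts to make laminins with the alpha 2 chain.

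Libraries held 46362158 to 70754854 counts, and all 10 genes passed the filter on low counts, with raw counts per library between 98 for Nid2 and 10011 for Agrn. Cortical neuron markers were present in all 12 libraries, at a summed level of 6901 to 10590 CPM (read counts scaled to library size with TMM factors). Some libraries also held transcripts of other places. The summed level of 15 choroid plexus markers was 2796 and 2653 CPM in replicates 3 and 4 of the fish oil injured group and 25.9 to 507 CPM in the other 10 libraries. Among those 10 it was 507 CPM in purified sham replicate 3, 256 CPM in fish oil injured replicate 2 and at most 71.2 CPM in the rest. The summed level of 3 olfactory bulb markers was 644 CPM in purified injured replicate 3 and 2.35 to 26.8 CPM elsewhere. The summed level of 11 striatal markers was 2666 CPM in fish oil sham replicate 2 and 250 to 1103 CPM elsewhere. The 1103 CPM came from purified sham replicate 4, and the next highest library had 652 CPM. These libraries are named below beside the results they touch, and the part they play in a result was not tested unless a value without them is given. In whole tissue, fewer cells of a type and less RNA per cell cannot be told apart.

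Promoter sequence was available from RefSeq (GRCm38.p6) for 7 of the 10 genes, in 8 windows of 300 bases that run from 250 before to 50 after a transcription start. Lamb1 and Nid1 are shown because their group means differed most in this set, and Agrn because it had the highest level. Only the bases that lie upstream of every annotated start of the gene are printed, 5′ to 3′ on the strand of the gene, from chr12:31265043-31265145 (plus strand) for Lamb1, chr13:13437352-13437550 (plus strand) for Nid1 and chr4:156197534-156197738 (minus strand) for Agrn. Capitals mark matches to GGGCGG (the GC box bound by Sp1 family factors) or CAGAC (an element bound by SMAD factors), on either strand.
Lamb1: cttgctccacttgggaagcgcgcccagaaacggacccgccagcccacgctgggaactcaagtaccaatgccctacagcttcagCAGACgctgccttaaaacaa
Nid1: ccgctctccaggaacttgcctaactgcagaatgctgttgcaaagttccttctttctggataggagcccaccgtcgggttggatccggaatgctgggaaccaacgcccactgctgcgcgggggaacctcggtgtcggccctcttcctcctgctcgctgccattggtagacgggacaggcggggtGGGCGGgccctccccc
Agrn: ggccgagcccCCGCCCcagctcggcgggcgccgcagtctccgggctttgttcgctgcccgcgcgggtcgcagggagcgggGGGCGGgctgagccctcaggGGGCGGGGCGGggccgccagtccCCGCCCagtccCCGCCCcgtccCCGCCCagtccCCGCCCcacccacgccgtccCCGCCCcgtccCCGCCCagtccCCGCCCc

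The printed Agrn stretch of 205 bases held 11 GC boxes, while the Nid1 stretch held 1 GC box and the Lamb1 stretch 1 CAGAC match. Over the whole windows, a GC box was found in 7 of the 8 member windows and in 35.7% of all 32851 promoter windows of the same length. The exception was Lamb2, whose window had a GC content of 44.0%, against 83.3% for the upstream Agrn window. CAGAC was found in 4 of 8 member windows and in 49.6% of all windows. TATAAA (13.6% of all windows), TGANTCA, the AP-1 site (7.8%), and AGGTCA, a nuclear receptor half-site (16.3%), were searched on both strands and were in none of the 8.

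Levels between genes were compared as CPM per kilobase of merged exon. Agrn had the highest mean, 13.7 ± 2.88 CPM per kilobase (SD, n = 12 libraries), followed by Lamc1 at 4.08 ± 0.519. Lamb2 (2.40 ± 0.612) and Lamb1 (1.68 ± 0.717), the beta chains, came next. Agrn was above Lamc1, and Lamc1 above Lamb2, in 12 of 12 libraries, and Lamb2 was above Lamb1 in 11 of 12.

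Lama2 (1.34 ± 0.213 CPM per kilobase), Nid1 (1.18 ± 0.768), Lama4 (0.951 ± 0.212), Nid2 (0.573 ± 0.232), Lama5 (0.568 ± 0.227) and Hspg2 (0.240 ± 0.0871) made up the lower part of the order. Neighbours were not separated for Lamb1 and Lama2 (Lamb1 higher in 6 of 12 libraries), for Nid1 and Lama4 (Nid1 higher in 6 of 12) or for Nid2 and Lama5 (Nid2 higher in 5 of 12). Lama2 was above Nid1 and Lama4 above Nid2 in 10 of 12 libraries, and Lama5 was above Hspg2 in all 12. The plot of levels per kilobase shows this order with the libraries of each group side by side.

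**Figure D1:**
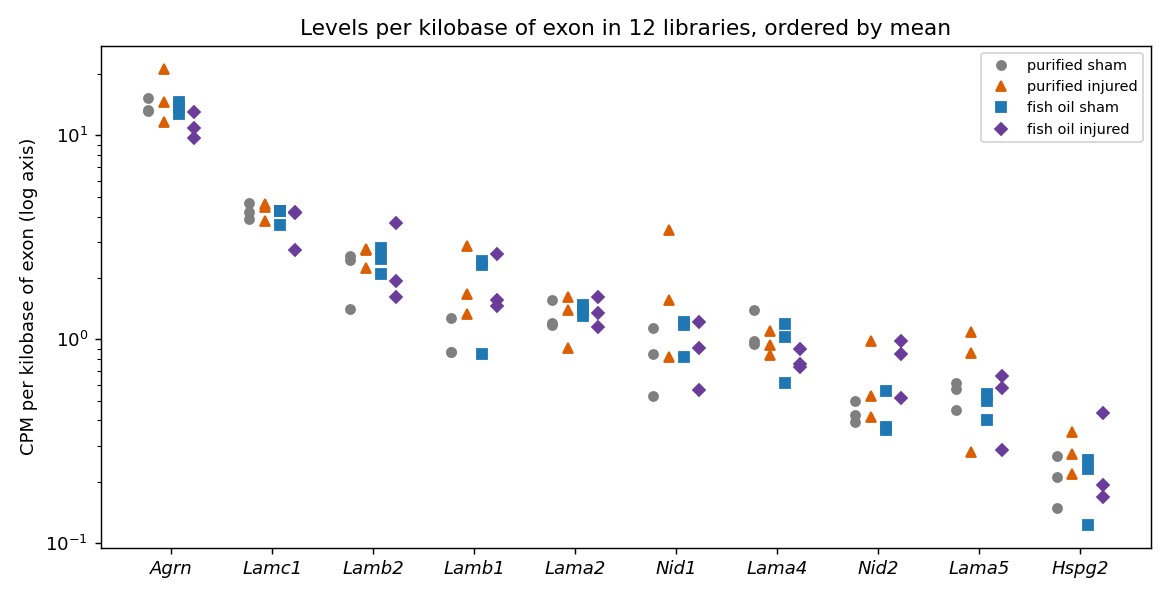
CPM per kilobase of merged exon (log axis) for the 10 genes, ordered by their mean, with 1 point per library and the 4 groups side by side in grey circles, orange triangles, blue squares and purple diamonds. Agrn lies above every other gene in all 12 libraries, and Hspg2 lies lowest, at a mean of 0.240 CPM per kilobase.

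The alpha chains decide which receptors a laminin trimer binds. Lama2, the alpha 2 chain, which is mutated in a congenital muscular dystrophy with brain white matter changes, lies on chromosome 10 (chr10:26980036-27619758, minus strand, GRCm38). Its levels were 19.2, 19.6 and 25.4 CPM in purified sham, 14.8, 26.4 and 22.7 CPM in purified injured, 22.6, 21.3 and 24.2 CPM in fish oil sham and 26.5, 21.9 and 18.8 CPM in fish oil injured libraries (replicates 2, 3 and 4 in each). The 4 groups overlapped, and the group means lay between 21.3 and 22.7 CPM. Its log2 fold change was -0.02 ± 0.20 (SE) for injury on the fish oil diet and 0.09 ± 0.20 for diet in sham mice, and the other pairwise values lay between these.

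Lama4, the alpha 4 chain of endothelial laminin (chr10:38965515-39110188, plus strand), measured 11.5, 16.8 and 11.8 CPM in purified sham and 10.1, 13.3 and 11.4 CPM in purified injured libraries. It measured 7.34, 12.3 and 14.3 CPM in fish oil sham and 9.14, 10.9 and 8.85 CPM in fish oil injured libraries. The group means ran from 13.3 ± 2.96 CPM (SD, n = 3) in purified sham to 9.62 ± 1.10 CPM in fish oil injured. Those 2 groups differ in both diet and injury, and the groups of each pairwise comparison overlapped. Its log2 fold change was below 0 in each of the 4 pairwise comparisons, from -0.20 ± 0.24 for injury on the purified diet to -0.27 ± 0.24 for diet in injured mice. The first was 0.00 without purified sham replicate 3. The lowest level, 7.34 CPM, came from the library with striatal transcripts, and the difference of -0.23 ± 0.24 for diet in sham mice was 0.01 without the 2 libraries with transcripts of other regions. In edgeR's quasi-likelihood test none of the 4 had an adjusted p below 0.697.

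Lama5, the alpha 5 chain (chr2:180176373-180225859, minus strand), is known for its uneven deposition along vessels and its part in barrier tightness. It measured 5.14, 6.98 and 6.52 CPM in purified sham and 9.71, 12.4 and 3.18 CPM in purified injured libraries. It measured 4.58, 6.13 and 5.70 CPM in fish oil sham and 3.27, 7.49 and 6.56 CPM in fish oil injured libraries. The purified injured group held both the highest value (replicate 3, the library with olfactory bulb transcripts) and the lowest (replicate 4) of the 12. Its log2 fold change for injury on the purified diet was 0.44 ± 0.42, and it was 0.07 without purified injured replicate 3 and 0.84 without replicate 4. For diet in injured mice it was -0.54 ± 0.42 (edgeR adjusted p = 0.654), -0.17 without purified injured replicate 3 and -1.38 without the 2 libraries highest in the choroid plexus gene Ttr. Those are fish oil injured replicates 3 and 4, so the last value has only replicate 2 in that group.

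Shares of the alpha sum, per kilobase, varied widely between libraries. Lama2 gave 34.9% to 60.8% of the sum over Lama2, Lama4 and Lama5, Lama4 gave 25.4% to 43.4% and Lama5 10.7% to 32.8%. The log2 ratio of Lama2 to Lama4, which does not depend on a library's scaling, was taken from CPM without division by exon length. It averaged 0.69 ± 0.44 (SD, n = 3) in purified sham, 0.84 ± 0.26 in purified injured, 1.05 ± 0.49 in fish oil sham and 1.21 ± 0.28 in fish oil injured libraries. The difference between diets, averaged over injury states, was 0.36 higher on fish oil, with an exact two-sided permutation p of 0.095 (adjusted p = 0.562 over the 10 ratio tests, smallest possible p 0.005).

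Beta chains join the alpha and gamma chains in a coiled coil. Lamb1, the beta 1 chain of most vascular laminins in the embryo and adult, lies on chromosome 12 (chr12:31265234-31329644, plus strand). It measured 8.63, 8.60 and 12.6 CPM in purified sham and 16.6, 13.1 and 28.5 CPM in purified injured libraries. It measured 22.9, 8.44 and 24.1 CPM in fish oil sham and 14.4, 26.1 and 15.6 CPM in fish oil injured libraries. All 3 purified injured libraries lay above all 3 purified sham libraries, and such a lack of overlap held for 11.6% of all genes in that comparison. The groups of the other pairwise comparisons overlapped. Purified sham had the lowest mean, 9.93 ± 2.27 CPM (SD, n = 3), while the mean was 19.4 ± 8.06 CPM in purified injured, 18.5 ± 8.74 in fish oil sham and 18.7 ± 6.42 in fish oil injured libraries.

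The log2 fold change of Lamb1 was 0.97 ± 0.41 for injury on the purified diet (edgeR adjusted p = 0.763), 3 of 3 injured libraries being above the sham libraries, and 0.90 ± 0.41 for fish oil against purified diet in sham mice (edgeR adjusted p = 0.934). Both comparisons use the same purified sham libraries. Fish oil sham replicate 2, at 22.9 CPM, is the library with striatal transcripts. Over the alternatives, the sham diet difference ran from 0.66 (without fish oil sham replicate 4) to 1.25 (without replicate 3). For injury on the fish oil diet the log2 fold change of Lamb1 was 0.02 ± 0.40. Fish oil injured replicate 3, at 26.1 CPM, is a library with choroid plexus transcripts. The interaction was -0.95 ± 0.58 (edgeR adjusted p = 0.820). Without purified injured replicate 4, which had the highest fibroblast marker score of all libraries (0.961), the purified-diet difference was 0.59. Within groups, Lamb1 had an SD of 0.585 on the log2 scale, and 94.3% of the 2208 genes whose mean log2 CPM was within 0.5 of its own had a smaller one.

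Lamb2, the beta 2 chain found in mature vessel walls, the glomerulus and the neuromuscular junction (chr9:108479736-108490530, plus strand), differed less. It measured 8.61, 14.9 and 15.6 CPM in purified sham, 16.8, 13.6 and 16.6 CPM in purified injured, 15.04, 12.7 and 17.1 CPM in fish oil sham and 11.8, 22.6 and 9.85 CPM in fish oil injured libraries. The groups overlapped, and both fish oil injured extremes came from the libraries with choroid plexus transcripts. Its log2 fold change was 0.27 ± 0.30 for injury on the purified diet, and 0.05 without purified sham replicate 2. For diet in injured mice it was -0.09 ± 0.30, and -0.54 without fish oil injured replicate 3.

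The plot of levels by library shows Lamb1 with its low purified sham group beside the flatter Lama2 and Lamc1. The log2 ratio of Lamb2 to Lamb1 was taken from CPM, without division by exon length. It averaged 0.37 ± 0.40 in purified sham, -0.23 ± 0.47 in purified injured, -0.17 ± 0.66 in fish oil sham and -0.38 ± 0.24 in fish oil injured libraries. Per kilobase, Lamb2 gave a mean of 67.6%, 58.0%, 58.7% and 55.5% of the beta sum in these groups. Averaged over diets the log2 ratio was 0.40 lower after injury (log2 difference -0.40, exact permutation p = 0.19, adjusted p = 0.562), which did not pass the threshold.

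**Figure D2:**
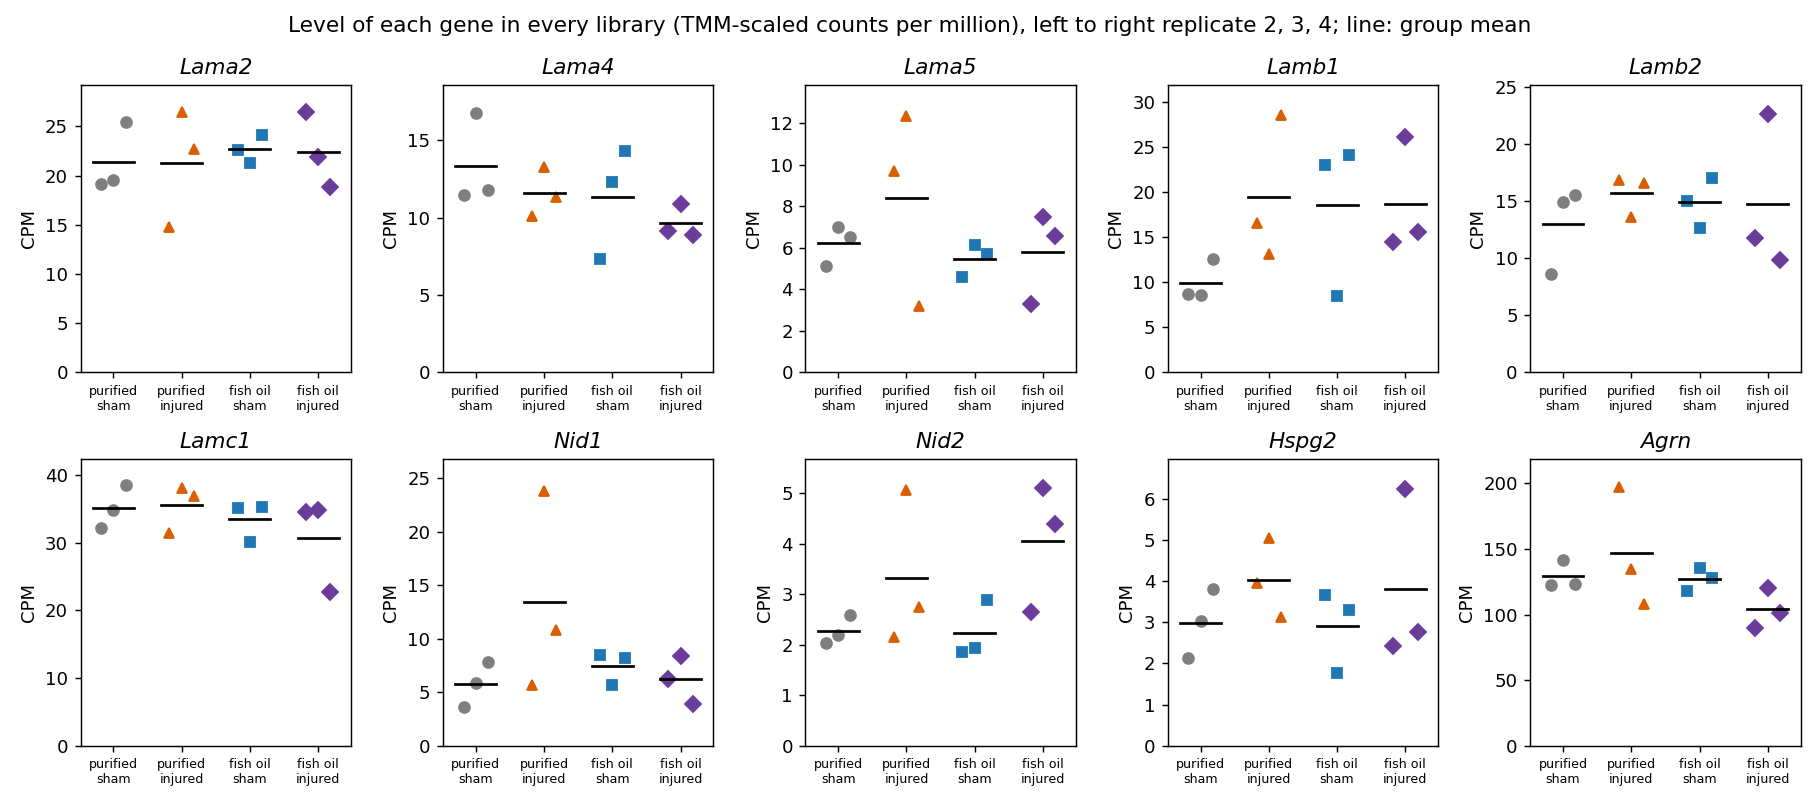
CPM (vertical axis, from 0) of each of the 10 genes in the 12 libraries, with replicates 2, 3 and 4 from left to right in each group and a line at the group mean. Lamb1 is the 1 gene whose sham and injured groups on the same diet do not overlap (8.60 to 12.6 CPM in purified sham, 13.1 to 28.5 CPM in purified injured), and Nid1 has 1 purified injured library at 23.8 CPM.

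Lamc1, the gamma 1 chain, is shared by nearly all laminins of vessels (chr1:153218922-153332786, minus strand). It measured 32.1, 34.9 and 38.5 CPM in purified sham, 31.5, 38.2 and 36.9 CPM in purified injured and 35.1, 30.1 and 35.3 CPM in fish oil sham libraries. In fish oil injured libraries it measured 34.6, 34.9 and 22.7 CPM. Apart from that last library, which is one of the pair with choroid plexus transcripts and has the lowest fibroblast score (-0.899), all values lay between 30.1 and 38.5 CPM. Its log2 fold changes ranged from -0.21 ± 0.16 (diet in injured mice) to 0.01 ± 0.16 (injury on the purified diet), the former -0.04 without fish oil injured replicate 4. Over the 12 libraries the gamma chain level was 2.75 to 4.65 CPM per kilobase, beside 2.40 to 3.81 for the sum of the 3 alpha chains and 2.29 to 6.35 for the sum of the 2 beta chains.

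The nidogens bind the short arm of the laminin gamma 1 chain. Nid1, the main nidogen of most basement membranes (chr13:13437551-13512269, plus strand), measured 3.65, 5.85 and 7.88 CPM in purified sham and 5.67, 23.8 and 10.8 CPM in purified injured libraries. It measured 8.46, 5.66 and 8.20 CPM in fish oil sham and 6.29, 8.41 and 3.93 CPM in fish oil injured libraries. Purified injured replicate 3, the library with olfactory bulb transcripts, stood far above the other 11, whose highest value was 10.8 CPM. All groups overlapped.

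Nid1 had the largest differences of the set. Its log2 fold change was 1.21 ± 0.48 for injury on the purified diet (edgeR adjusted p = 0.763), with 2 of 3 injured libraries above the highest sham library. It was -1.11 ± 0.48 for fish oil against purified diet in injured mice (edgeR adjusted p = 0.456), and -1.47 ± 0.67 for the interaction, the injury difference on fish oil minus that on the purified diet (edgeR adjusted p = 0.820). These 3 values share the purified injured libraries. Without replicate 3 of that group they were 0.52, -0.42 and, also leaving out the library with striatal transcripts, -0.69.

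Nid2, the other nidogen (chr14:19751265-19811787, plus strand), was lower than Nid1 in 11 of 12 libraries per kilobase. It measured 2.03, 2.19 and 2.58 CPM in purified sham, 2.15, 5.07 and 2.74 CPM in purified injured, 1.86, 1.93 and 2.89 CPM in fish oil sham and 2.65, 5.11 and 4.39 CPM in fish oil injured libraries. The 3 highest values came from the library with olfactory bulb transcripts and the 2 with choroid plexus transcripts, and the other 9 libraries lay between 1.86 and 2.89 CPM. An antisense neighbour, Rtraf, shares 437 exon bases with Nid2, 8.45% of the Nid2 exons, and has a mean count of 2563, and whether the counting used strand is not stated, so the Nid2 values are uncertain.

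For injury within the fish oil diet, the log2 fold change of Nid2 was 0.86 ± 0.35 (edgeR adjusted p = 0.999) and on the purified diet it was 0.55 ± 0.35. Averaged over diets it was 0.71 ± 0.25 (edgeR adjusted p = 0.991), the smallest unadjusted p of any member and comparison, and 0.40 without the 2 libraries highest in Ttr. The fish oil difference was 0.24 without those 2 libraries, which leaves only replicate 2 in the fish oil injured group. The purified-diet difference was 0.12 without purified injured replicate 3. Nid1 made up 64.4% ± 6.37 (SD, n = 3) of the nidogen sum per kilobase in purified sham, 72.9% ± 5.92 in purified injured, 71.2% ± 5.17 in fish oil sham and 53.0% ± 12.1 in fish oil injured libraries.

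The proteoglycans were the highest and the lowest gene of the set. Agrn encodes agrin, which clusters acetylcholine receptors at the neuromuscular junction and, in the brain, is made by neurons as well as deposited in vessel walls (chr4:156165290-156197488, minus strand). It measured 122, 141 and 123 CPM in purified sham, 197, 135 and 108 CPM in purified injured, 118, 136 and 128 CPM in fish oil sham and 89.8, 120 and 101.4 CPM in fish oil injured libraries. The sham groups of both diets lay within 118 to 141 CPM, and purified injured replicate 2 stood above all others.

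The log2 fold change of Agrn was -0.50 ± 0.19 for fish oil against purified diet in injured mice (edgeR adjusted p = 0.413), and the groups overlapped at 108 against 120 CPM. Without purified injured replicate 2 it was -0.22. The lowest adjusted p of this difference under any alternative was 0.0919, without purified injured replicate 4. Averaged over injury states, the diet difference was -0.26 ± 0.13 (edgeR adjusted p = 0.589), and -0.12 without purified injured replicate 2.

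Hspg2, which encodes perlecan, a large proteoglycan that stores fibroblast growth factor in vessel walls (chr4:137468769-137570630, plus strand), measured 2.13, 3.02 and 3.81 CPM in purified sham and 3.94, 5.03 and 3.12 CPM in purified injured libraries. It measured 3.65, 1.76 and 3.29 CPM in fish oil sham and 2.42, 6.23 and 2.77 CPM in fish oil injured libraries. The groups overlapped, with the highest value in fish oil injured replicate 3. Its log2 fold changes for injury were 0.43 ± 0.40 on the purified diet and 0.39 ± 0.40 on the fish oil diet. The former was 0.24 without purified sham replicate 2 and the latter -0.28 without the 2 libraries highest in Ttr. That last value has only replicate 2 left in the fish oil injured group. Agrn made up 96.8% to 99.2% of the sum of the pair per kilobase.

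No gene of the set passed an adjusted p of 0.05 in any of the 7 comparisons by edgeR's quasi-likelihood test, DESeq2 or limma-voom, and among all 19252 genes edgeR called none in any comparison either (0.0% in each). The unadjusted counts are therefore read against the same share over all genes. For injury on the purified diet, 2 of 10 members (Lamb1 and Nid1) had an unadjusted edgeR p under 0.05, against 6.5% of all genes. For injury on the fish oil diet it was 1 of 10 (Nid2), against 3.48%, and for diet in sham mice 0 of 10, against 3.69%. For diet in injured mice it was 2 of 10 (Nid1 and Agrn), against 10.7%.

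For injury averaged over diets, 1 of 10 members (Nid2) had an unadjusted edgeR p under 0.05, against 3.6% of all genes. For diet averaged over injury states it was 0 of 10, against 8.85%, and for the interaction 1 of 10 (Nid1), against 5.76%. With so few members, each of these counts rests on 1 or 2 genes whose values are given above. The groups did not overlap for 1 of 10 members (Lamb1) for injury on the purified diet, where this held for 11.6% of all genes. They overlapped for all 10 members for injury on the fish oil diet (10.2% of all genes without overlap), diet in sham mice (13.8%) and diet in injured mice (11.6%).

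The signs across the set were as follows. For injury on the purified diet, 8 of 10 members had a log2 fold change above 0, with a median of 0.35, beside 0.00 over all genes, and the values ran from -0.20 (Lama4) to 1.21 (Nid1). That median was 0.19 without purified injured replicate 3 and at most 0.48 when another library was left out. On the fish oil diet, 4 of 10 were above 0 and the median was -0.02, or -0.27 to 0.07 with each library left out in turn. For fish oil against purified diet, the median was -0.02 in sham mice, with 4 of 10 above 0, and -0.15 in injured mice, with 2 of 10 above 0 (Lama2 and Nid2). With each library left out in turn these medians ran from -0.08 to 0.13 and from -0.45 to 0.01.

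The interaction was below 0 for 9 of 10 members, Nid2 being the exception, with a median of -0.21 beside -0.02 over all genes, or -0.59 to -0.03 with each library left out in turn. The members are measured in the same libraries and are not independent, and the pairwise comparisons share groups. In the plot of log2 fold changes, Lamb1, Nid1, Nid2 and Agrn are the genes with a value more than 2 SE from 0 in at least 1 comparison.

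**Figure D3:**
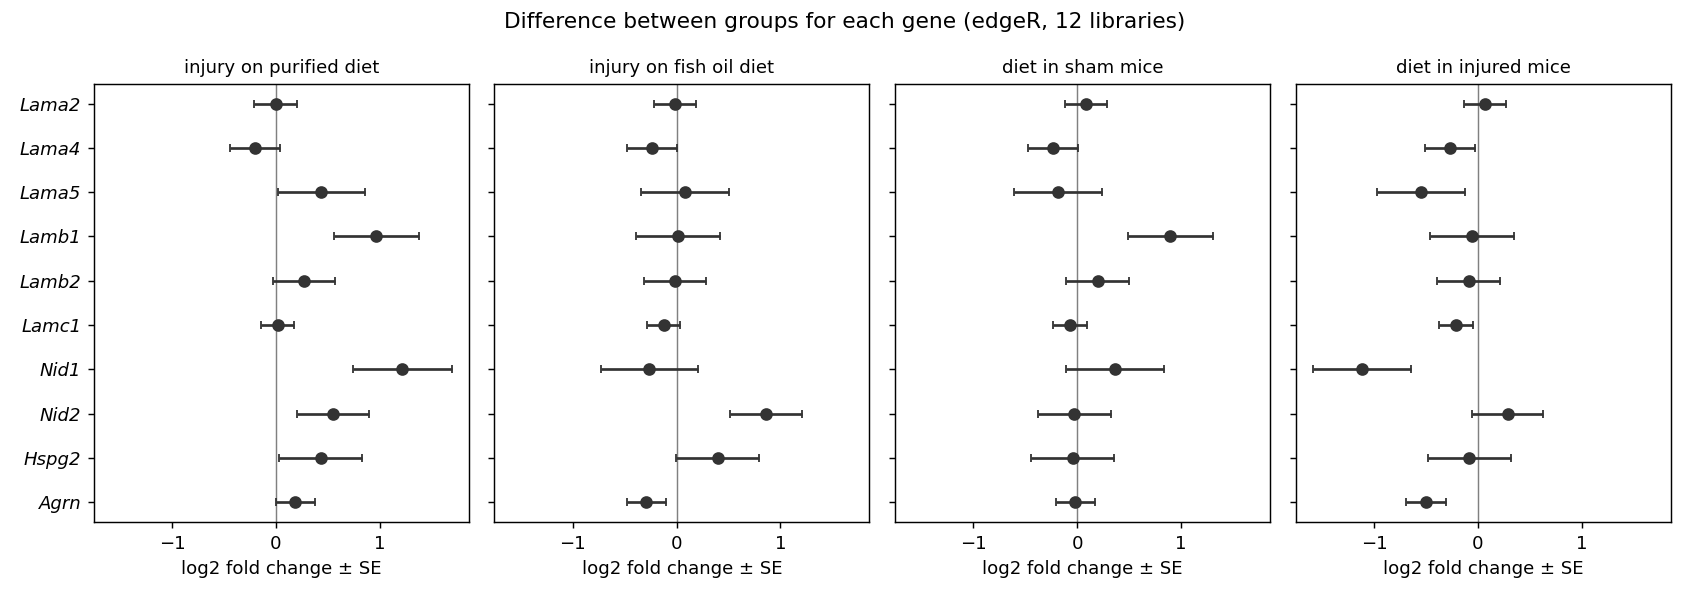
Log2 fold change (horizontal axis) with its standard error for each of the 10 genes in the 4 pairwise comparisons, from edgeR fitted to 12 libraries. Lamb1 (0.97) and Nid1 (1.21) lie farthest to the right for injury on the purified diet and Nid1 (-1.11) farthest to the left for diet in injured mice, and none of the 40 values passed an adjusted p of 0.05.

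Other genes of the basement membrane were read from lists by role, and none of those described here passed an adjusted p of 0.05 in any comparison by edgeR. Lama3, a laminin alpha chain of epithelia, had a log2 fold change of -1.02 ± 0.36 for diet in injured mice (edgeR adjusted p = 0.407). The basement membrane collagens (0 of 8 called) had medians of 0.17 for injury on the purified diet and 0.01 for diet in injured mice. Within that list, Col4a1 and Col4a2, the 2 chains of the common type IV collagen network that nidogens join to laminin, had log2 fold changes of -0.64 ± 0.18 and -0.73 ± 0.25 for diet in injured mice (edgeR adjusted p = 0.369 and 0.402). Col4a1 had group means of 31.1 CPM in purified sham, 33.3 in purified injured, 28.2 in fish oil sham and 21.4 in fish oil injured libraries.

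Col4a3, a chain of the collagen IV network of kidney and choroid plexus, had a log2 fold change of 2.72 ± 0.85 after injury on fish oil (edgeR adjusted p = 0.999). Its level was low, with a mean of 0.260 ± 0.149 CPM (SD) in fish oil sham and 1.74 ± 1.23 CPM in fish oil injured libraries. Of 15 choroid plexus markers, 15 were above 0 in that comparison, with a median log2 fold change of 4.28. A link between these values was not tested. The other basement membrane glycoproteins (0 of 13 called) had a median of 0.38 for injury on the purified diet and -0.25 for diet in injured mice. Hmcn1, which encodes the large matrix protein hemicentin 1, had values of 1.19 ± 0.32 and -1.29 ± 0.32 in these comparisons (edgeR adjusted p = 0.763 and 0.362). Fbln2, encoding fibulin 2, which binds nidogen and laminin, had a log2 fold change of -1.31 ± 0.42 for diet in injured mice (edgeR adjusted p = 0.400).

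Receptors and linkers (0 of 17 called), matrix proteases and their inhibitors (0 of 19) and the enzymes of heparan sulfate synthesis (0 of 17) also had no called gene. The receptor list, which holds integrin chains and the dystroglycan complex, had medians of 0.04 for injury on the purified diet and 0.07 for diet in injured mice, beside 0.35 and -0.15 for the 10 laminin, nidogen and proteoglycan genes. Dystrophin (Dmd), which anchors dystroglycan inside the cell, had an interaction of 0.42 ± 0.16 (edgeR adjusted p = 0.820). Mmp9, a protease that degrades basement membrane, had a log2 fold change of 0.81 ± 0.28 for diet in sham mice (edgeR adjusted p = 0.934), and Ndst2, which sulfates heparan chains such as those of perlecan and agrin, one of -0.45 ± 0.13 for diet in injured mice (edgeR adjusted p = 0.385).

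Because several cell types make these genes, each was set against scores of endothelial, mural, fibroblast and astrocyte markers over the 12 libraries. A score is the mean over the list of log2 CPM minus each marker's own mean. None of the 40 relations had an adjusted permutation p under 0.05, and 7 had an unadjusted one (100000 resamples, two-sided). The same share over all genes was not computed. The 7 include Agrn with the astrocyte score (r = -0.635, permutation p = 0.030, adjusted p = 0.24) and Lamc1 with the fibroblast score (r = 0.592, permutation p = 0.036, adjusted p = 0.24). Without the 2 libraries farthest from the median score, these r were 0.001 and 0.645.

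Lamb1 was higher in libraries with a high fibroblast score (Pearson r = 0.714, permutation p = 0.010, adjusted p = 0.10; Spearman rho = 0.573, permutation p = 0.056) and lower in those with a high endothelial score (r = -0.735, permutation p = 0.0067, adjusted p = 0.089; rho = -0.741, permutation p = 0.0079). Without the 2 libraries farthest from the median score, r was 0.485 for fibroblast and -0.750 for endothelial markers. As deviations from group means, r was 0.741 and -0.719. Lamb2 also followed the fibroblast score (r = 0.732, permutation p = 0.0064, adjusted p = 0.089; rho = 0.650, permutation p = 0.027), with r = 0.598 without the 2 farthest libraries and 0.712 within groups. The scores were themselves related, at r = 0.705 for fibroblast and astrocyte and r = -0.536 for endothelial and fibroblast. Lamb1 also had r = 0.584 with the astrocyte score (permutation p = 0.045, adjusted p = 0.26; rho = 0.629, permutation p = 0.033), 0.849 without the 2 farthest libraries. With the mural score it had r = 0.202 over all libraries (permutation p = 0.54, adjusted p = 0.69; rho = 0.399, permutation p = 0.20), 0.466 without the 2 farthest and 0.761 within groups (exact permutation p = 0.0031, adjusted p = 0.12). The relations to single cell types therefore cannot be told apart in these libraries.

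Nid1 had a rho of 0.804 with the fibroblast score (permutation p = 0.0023, adjusted p = 0.092) and an r of 0.529 (permutation p = 0.076, adjusted p = 0.33), 0.519 without the 2 farthest libraries. Leaving out replicate 3 of the purified injured and replicate 2 of the fish oil sham group, the libraries with transcripts of other brain regions, r was 0.869 (adjusted permutation p = 0.027 over the 40 relations). That alternative was chosen after the data had been seen, and the library it removes is the one where Nid1 was highest. Lama2 followed the astrocyte score most closely (r = 0.785, permutation p = 0.0025, adjusted p = 0.089; rho = 0.636, permutation p = 0.030), and r was 0.483 without the 2 farthest libraries, so the relation rests in part on those.

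Lama4, a gene of endothelial laminin, had an r of 0.511 with the endothelial score (permutation p = 0.089, adjusted p = 0.33; rho = 0.490, permutation p = 0.11), 0.648 without the 2 farthest libraries and 0.201 within groups. The endothelial list itself lay lower on fish oil: 15 of 15 markers had a log2 fold change below 0 for diet averaged over injury states, with a median of -0.55, although none passed an adjusted p of 0.05 by edgeR. Beside it, the 10 basement membrane genes had a median of -0.10 in that comparison. Fibroblast scores were highest in purified injured replicate 4 (0.961), fish oil injured replicate 3 (0.937) and fish oil sham replicate 4 (0.712), and these were also the 3 libraries with the highest Lamb1 levels, at 28.5, 26.1 and 24.1 CPM.

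**Figure D4:**
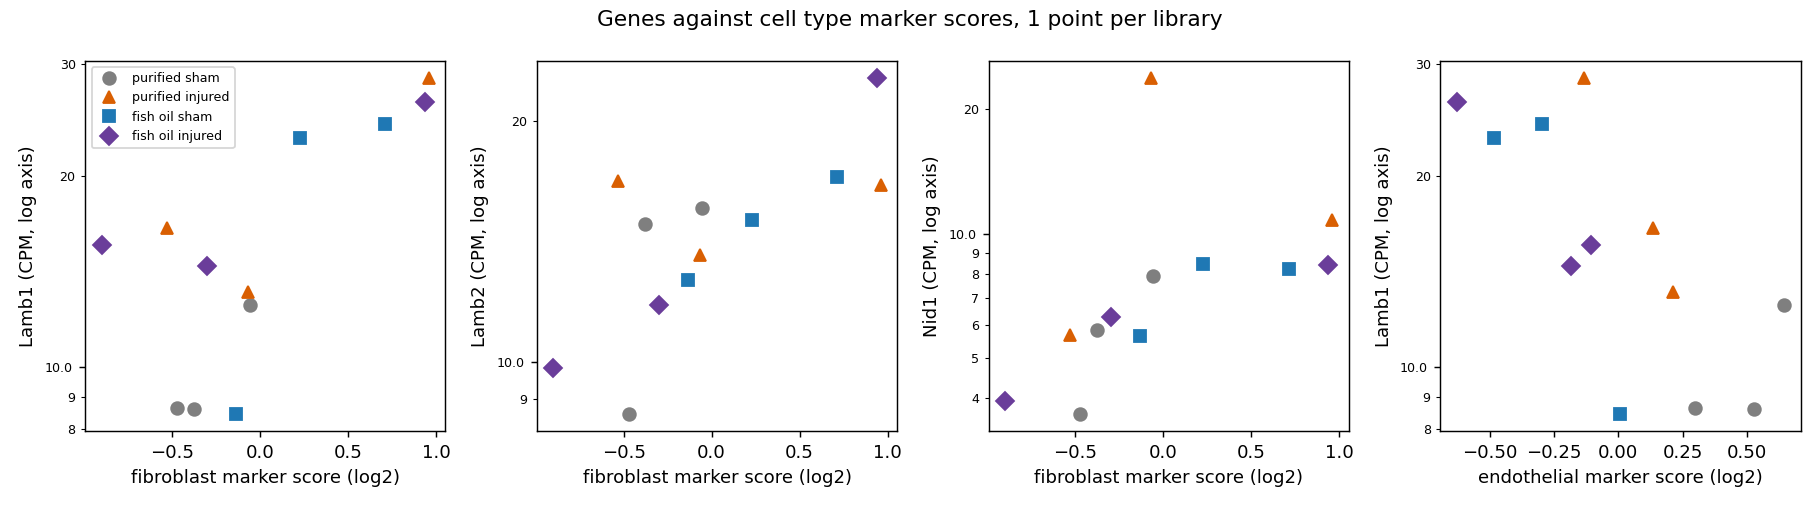
CPM (log axis) of Lamb1, Lamb2 and Nid1 against the fibroblast marker score and of Lamb1 against the endothelial marker score (log2 units), with 1 point per library and the 4 groups in grey circles, orange triangles, blue squares and purple diamonds. Lamb1 is highest where the fibroblast score is highest (r = 0.714) and tends to be lower at a higher endothelial score (r = -0.735), and in the Nid1 panel 1 purified injured library at 23.8 CPM stands apart from the rest.

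The 10 genes were also set against each other. Of 45 pairs, 36 had a Pearson r above 0 over the 12 libraries, with a median r of 0.273. None had an adjusted permutation p under 0.05, and 8 had an unadjusted one. The same share for pairs of other genes was not computed, so whether the 10 genes move together was not tested. The closest pair was Lamb2 and Hspg2 (r = 0.718, permutation p = 0.0091, adjusted p = 0.26; rho = 0.727, permutation p = 0.0098), with r = 0.709 without the 2 farthest libraries. Lama5 and Agrn had r = 0.686 and Lamc1 and Nid1 r = 0.674 (adjusted permutation p = 0.26 for both). Agrn and Lama2 went opposite ways, at r = -0.598, but r was 0.252 without the 2 libraries farthest from the median of Lama2, so that relation rests on those libraries.

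The 3 genes most like each member were ranked by Pearson r over the 12 libraries among 13222 genes, as a description without a test. For Lamb1 they were Abcb4 (r = 0.948), Sh3pxd2a (0.938) and Robo1 (0.933), and for Lamb2 they were Lrrc41 (0.942), Cspg4 (0.937), which encodes the pericyte and oligodendrocyte precursor proteoglycan NG2, and Stab1 (0.931). For Nid1 they were Zfp516 (0.952), Wnt5a (0.939) and Sema3d (0.938), and these ran up to 35.4, 26.6 and 38.2 CPM. For Nid2 they were Cpt1a (0.911), Ppara (0.910) and Tnfaip8 (0.897), and for Agrn Brat1 (0.944), Man2c1 (0.942) and Ap5z1 (0.941).

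The other members had Mtmr10 (0.955, Lama2), Bicd2 (0.880, Lama4), Cxxc1 (0.912, Lama5), Vcl (0.938, Lamc1) and Ubap2 (0.887, Hspg2) as the closest gene. No gene was among the 3 closest of more than 1 member. Likeness of this kind can follow from a single library: without the 2 libraries farthest from the median, the r of the closest gene was 0.928 for Lamb1, 0.862 for Nid1 and 0.665 for Lama4.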

How the data were processed

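Total RNA of 12 mouse brain libraries was sequenced as paired reads from stranded libraries, per the labels' protocols. The values the authors deposited are raw read counts per gene. STAR 2.5.2a and featureCounts 1.4.3-p1 on mm10 are named in the submitters' processing notes, without an annotation release or strand setting. Values of 2 (20514) outnumbered values of 1 (11222), so both mates of a pair appear to be counted. Symbols and positions are from GENCODE M21 (GRCm38), in which 50604 of 53379 identifiers matched with their version, among them the 10 members.

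Of all genes, 19252 passed filterByExpr (minimum count 10). edgeR 4.0.16 (TMM, glmQLFit, glmQLFTest) was fitted to 4 group means over 12 libraries, with Benjamini-Hochberg adjustment over all genes. Standard errors come from the F statistic. CPM use TMM factors, which were 0.941 to 1.06, and levels per kilobase use merged exons. Marker scores and ratios use log2 CPM with a prior count of 2. Libraries of a group differed beyond sampling noise, so each was counted once. This shows that they are not repeats of 1 library, and not that they are independent animals. In every group, replicates 3 and 4 share the first number of the library name, and replicate 2 has another. The meaning of that number is not stated, and the alternative with correlated libraries used it as a block. The procedure was tested on simulated data. DESeq2 1.42.0, limma 3.58.1 (voom), other scalings and filters, and leaving out libraries were alternatives. The members and all lists were chosen with earlier results of these data known. All 10 members are named, with the 2 genes of smallest p in each related list and comparison as candidates and the 3 closest genes by correlation. Some genes that met this rule are left out of the text.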

Additional observations from a re-analysis of the deposited data

How the results depend on the processing

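No member passed the threshold in any comparison under any alternative, and of the members' single values 1733 moved by less than their error and 57 moved by more. Part of the 1733 could hardly move. The threshold of 0.10 leaves each value as it is, and a library outside a pairwise comparison barely touches its fold change. The tally is therefore no measure of how stable the values are. Counts of genes past the threshold, 0 in each comparison by edgeR, were 14 (injury on purified diet), 37 (injury on fish oil diet), 17 (diet in sham mice), 186 (diet in injured mice), 3 (injury averaged), 99 (diet averaged) and 21 (interaction) by DESeq2. limma-voom called 1 gene for injury on fish oil diet and 2 for injury averaged, with or without quality weights or correlated libraries, and 2 for diet averaged with correlated libraries. Without a filter on low counts, edgeR called 1 for injury averaged and 2 for diet averaged, and at a threshold of 0.10 it called 1 for injury averaged. Leaving out each library in turn gave 0 to 7 genes for injury on fish oil diet (7 without fish oil injured replicate 2), 0 to 83 for diet in injured mice (83 without purified injured replicate 4, 14 without fish oil injured replicate 2) and 0 to 6 for diet averaged (6 without purified injured replicate 4). The members' median log2 fold change ran from 0.19 (without purified injured replicate 3) to 0.48 for injury on purified diet, from -0.454 to 0.008 for diet in injured mice and from -0.592 to -0.032 for the interaction when each library was left out, lowest without fish oil injured replicate 3 in the latter 2.

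Without the 2 libraries highest in Ttr, an alternative chosen after seeing the data, the median was -0.30 for injury on fish oil diet, -0.43 for diet in injured mice and -0.67 for the interaction. Only replicate 2 of the fish oil injured group remains in that alternative, so these values rest on a single library of that group. That library itself had a summed choroid plexus marker level of 256 CPM. Without the 2 libraries with transcripts of other regions, also chosen after seeing the data, 1 gene was called for diet in injured mice and 1 relation with marker scores (Nid1 with fibroblast) passed. Without the 2 libraries farthest from the median score, 2 relations passed, Lamb1 and Lamb2 with the astrocyte score (r = 0.849 and 0.911). Over all 12 libraries these 2 had r = 0.584 and 0.327 (adjusted permutation p = 0.26 and 0.52). The cause of these shifts was not tested. With the replicate number as a replicate block, 0 genes were called in each comparison, and the members' median was 0.35 for injury on purified diet. Same-numbered libraries deviated with correlations of -0.46 to 0.36, so no pairing by number was seen. The check rests on deviations from means of 3 libraries and cannot exclude a factor that same-numbered libraries share. What sequencing depth and the spread between the 3 libraries of a group each add to these results was not tested.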
